A study of Mus musculus with 2 samples.

Results

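Igf1, the gene of insulin-like growth factor 1, its receptor gene Igf1r and the IGF binding protein genes Igfbp2, Igfbp3, Igfbp4, Igfbp5, Igfbp6 and Igfbp7 were followed across the cells of dystrophic muscle. The genes were chosen by symbol, and all 8 were found among the 24984 gene symbols measured in each library. Droplet single cell RNA-seq covered the live mononuclear cells of hind limb muscle, sorted after lysis of red cells, from mice on the dystrophin-deficient mdx background used to model Duchenne muscular dystrophy. The Ctrl mice were Pax7CreERT2/R26YFP, Yy1+/+ and mdx, and the dKO mice were Pax7CreERT2/R26YFP, Yy1f/f and mdx. Both groups carried the tamoxifen-inducible Cre under Pax7, which acts in muscle stem cells (MuSCs) and their progeny, and both received tamoxifen for 5 days at 1.5 months of age. Muscle was taken 1 month later and the cells of 3 mice were pooled into 1 library per group.

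With 1 pooled library per group there was no replicate check, no test was run, and a difference between the libraries cannot be told apart from a difference between the groups. Levels are counts of unique molecular identifiers (UMIs, which mark single captured transcripts) summed over a cell class and divided by the class total, per 1000000 UMIs (CPM), and the values in parentheses are exact 95% intervals that cover counting error only. Ratios are dKO over Ctrl CPM and are given where both libraries together held at least 100 UMIs of the gene in the class. After filtering, 4010 Ctrl and 3079 dKO cells were kept, with medians of 7807 and 7852 UMIs per cell, and 6 cell barcodes occurred among the kept cells of both libraries. Classes were named from marker genes: 1080 Ctrl and 1139 dKO cells were fibro-adipogenic progenitor (FAP)-like, 1414 and 1124 monocyte/macrophage (MO/MP)-like, 470 and 181 endothelial cell (EC)-like, 135 and 92 tenocyte-like, 123 and 35 smooth muscle/pericyte-like, and 123 and 31 MuSC-like. The targeted gene, Yy1, was at 162 CPM in Ctrl and 3.86 CPM in dKO MuSC-like cells (402 and 3 UMIs), whereas its ratio was 1.08 among FAP-like and 1.09 among MO/MP-like cells, which the Cre does not target.

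IGF1 is a secreted growth factor that acts through the receptor tyrosine kinase IGF1R, and in muscle it is known for promoting myoblast proliferation and differentiation and fibre growth. The IGF binding proteins are secreted proteins that hold IGFs in the extracellular space, where they can block or prolong the action of the ligand, and proteases such as PAPPA and HTRA1 cut them and free the ligand. IGFBP7 binds IGFs weakly and is better known from the vascular basement membrane. Macrophages and mesenchymal cells are known sources of IGF1 in injured muscle.

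The genes lie on 6 mouse chromosomes (GENCODE M21, GRCm38), and all are protein coding. Igf1 spans chr10:87858265-87937042 on the plus strand and Igf1r chr7:67952827-68233668 on the plus strand. Igfbp2 (chr1:72824503-72852474, plus strand) and Igfbp5 (chr1:72857932-72874884, minus strand) are neighbours that end 5458 bases from each other. Igfbp3 lies at chr11:7206086-7213923 on the minus strand and Igfbp4 at chr11:99041244-99054392 on the plus strand. Igfbp6 is at chr15:102144362-102149511 on the plus strand and Igfbp7 at chr5:77349240-77408041 on the minus strand.

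The promoters of the 3 genes that were past 1.5-fold in opposite directions in different cell classes, as given with the values, are shown here, 250 bases up to the transcription start, 5′ to 3′ on the gene's own strand (RefSeq, GRCm38.p6). Capitals mark CANNTG, the E-box read by myogenic factors such as MyoD.
Igfbp3, chr11:7213924-7214173, minus strand: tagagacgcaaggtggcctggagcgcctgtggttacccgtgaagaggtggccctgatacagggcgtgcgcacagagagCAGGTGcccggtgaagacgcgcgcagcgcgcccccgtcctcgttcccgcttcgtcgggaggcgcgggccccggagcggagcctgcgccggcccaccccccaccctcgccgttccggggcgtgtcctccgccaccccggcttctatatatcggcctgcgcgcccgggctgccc
Igfbp4, chr11:99040994-99041243, plus strand: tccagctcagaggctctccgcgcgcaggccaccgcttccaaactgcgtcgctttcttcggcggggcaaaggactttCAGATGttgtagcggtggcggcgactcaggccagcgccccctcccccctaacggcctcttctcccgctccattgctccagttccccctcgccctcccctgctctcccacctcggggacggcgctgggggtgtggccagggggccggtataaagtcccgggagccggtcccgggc
Igfbp5, chr1:72874866-72875115, minus strand: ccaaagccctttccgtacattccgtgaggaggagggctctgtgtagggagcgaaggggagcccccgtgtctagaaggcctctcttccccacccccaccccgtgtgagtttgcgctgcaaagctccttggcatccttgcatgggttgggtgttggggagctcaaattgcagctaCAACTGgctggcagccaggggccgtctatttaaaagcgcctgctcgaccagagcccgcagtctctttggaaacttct
All 8 genes had a window of this kind, 9 windows in all, since Igfbp2 had a pair. All motifs were searched on both strands. CCATNTT, the core motif of YY1, was in 0 of the 9 windows, against 12.4% of 32851 windows of the same length. CANNTG was in 7 of the 9 and in 66.2% of all windows. TATAAA was in 2 of the 9, on the gene's own strand for Igfbp4 and on the opposite strand for Igfbp6, and in 12.4% of all windows on either strand. The absence of these letters from a window says nothing of binding elsewhere or of the factor itself.

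Igf1 was a stromal and macrophage transcript. In Ctrl it stood at 696 CPM in FAP-like cells (10125 UMIs) and 668 CPM in tenocyte-like cells (970 UMIs), whose intervals overlapped. It was at 340 CPM in cycling FAP-like cells, 227 CPM in MO/MP-like cells, 110 CPM in cycling MO/MP-like cells and 103 CPM in EC-like cells. In dKO the tenocyte-like cells were highest with 783 CPM (729 UMIs), above the FAP-like cells with 658 CPM (9987 UMIs), and the order of the next classes was the same, at 230, 169, 87.3 and 69.4 CPM. The plot of levels by class shows FAP-like and tenocyte-like cells highest in both libraries, followed by cycling FAP-like and then MO/MP-like cells. In cells thinned to 2000 UMIs, an Igf1 UMI was carried by 59.4% of 1017 FAP-like cells in Ctrl and 52.5% of 1086 in dKO, and by 29.5% of 1268 and 22.6% of 1012 MO/MP-like cells. Unthinned, the shares were 82.6% and 82.4% in FAP-like cells and 49.7% and 42.9% in MO/MP-like cells, with 63 and 53 FAP-like and 146 and 112 MO/MP-like cells left out of the thinned shares as too shallow. B cell-like cells, which should lack Igf1, had 1.02% of 98 and 1.41% of 71 thinned cells with a UMI, at median depths of 2328 and 2556 UMIs against 11748.5 and 11872 in FAP-like cells.

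**Figure D1:**
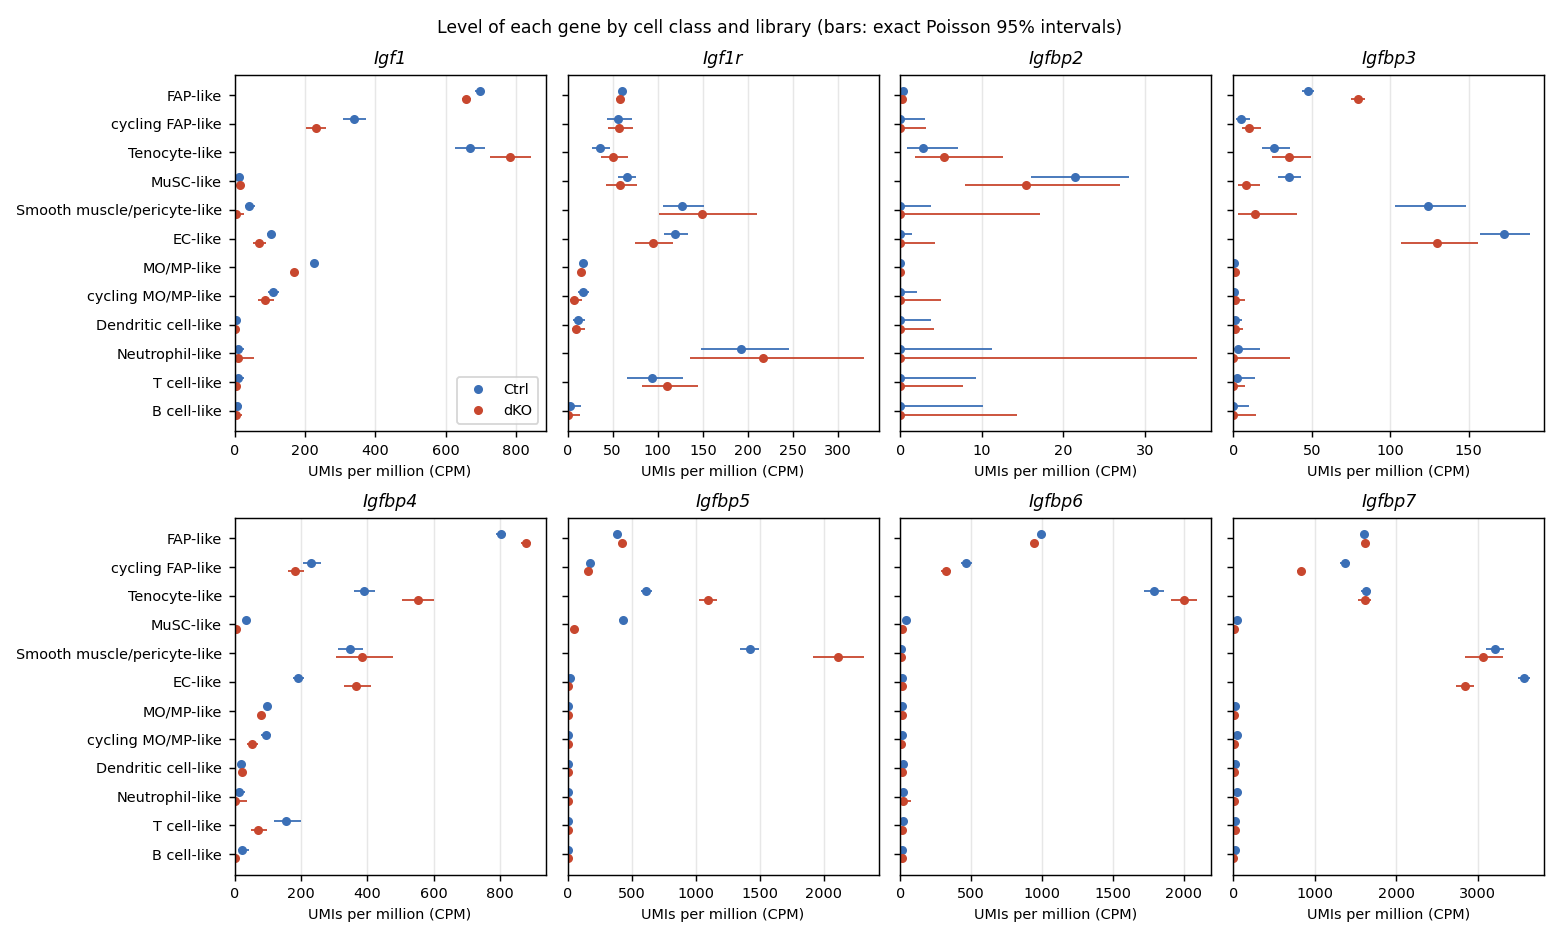
Level of each gene (x axis, CPM, linear from 0, a different scale in each panel) in the 12 cell classes with at least 20 cells in each library, with Ctrl in blue, dKO in red and bars for the exact Poisson 95% interval. Igf1, Igfbp4 and Igfbp6 were highest in FAP-like or tenocyte-like cells, Igfbp3 in EC-like cells, Igfbp5 and Igfbp7 in smooth muscle/pericyte-like or EC-like cells, Igfbp2 in MuSC-like cells and Igf1r in neutrophil-like cells.

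Igf1 was within 1.5-fold between the libraries in its large sources, with the lower ratio in macrophages. The Igf1 ratio in FAP-like cells was 0.946 (0.920 to 0.972), within 1.5-fold. In MO/MP-like cells it was 0.748 (0.702 to 0.796), from 2944 UMIs in Ctrl and 1465 in dKO, also short of 1.5-fold. FAP markers found in the same MO/MP-like cells were lower as well, at a summed 556 CPM in Ctrl and 419 CPM in dKO, a ratio of 0.754 (0.724 to 0.784) with 11 of 12 lower and none at 0, and their part in the Igf1 ratio was not tested. EC-like cells had a ratio of 0.672 (0.501 to 0.889), which became a log2 ratio of -0.15 in place of -0.57 with the mean of single-cell CPM values, and tenocyte-like cells had 1.17 (1.06 to 1.29). Cycling FAP-like cells had 0.678 (0.580 to 0.791), from 418 and 274 UMIs, where the log2 ratio of -0.56 became -1.23 in thinned cells and -0.24 with doublets kept in. Cycling MO/MP-like cells had 0.791 (0.588 to 1.05), where the log2 ratio of -0.34 became 0.66 in thinned cells. Over all kept cells, FAP-like cells held 67.2% of the 15056 Igf1 UMIs in Ctrl (66.5% to 68.0%) and 79.2% of the 12610 in dKO (78.5% to 79.9%). The MO/MP-like share was 19.6% in Ctrl (18.9% to 20.2%) and 11.6% in dKO (11.1% to 12.2%). These shares move with the number of cells of each class as well as with the level per cell, and 26.9% of the kept Ctrl cells and 37.0% of the kept dKO cells were FAP-like. The whole-library Igf1 level was 370 CPM in Ctrl and 413 CPM in dKO, higher in dKO although the FAP-like and MO/MP-like levels were not.

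FAP-like cells were far from uniform in Igf1. They were clustered again without the IGF genes, and each of the 7 sub-clusters is called by its leading genes. The sub-cluster led by C1qtnf3, G0s2 and Fibin had the highest level in both libraries, 951 CPM in Ctrl and 1057 CPM in dKO, and held 51.4% of the FAP-like Igf1 UMIs in Ctrl and 43.7% in dKO. The sub-cluster led by Mcm3, Cxcl5 and Il1rl1 had the lowest level, 211 and 190 CPM, so the spread across sub-clusters was 4.52-fold in Ctrl and 5.56-fold in dKO. The Dpp4- and Sema3c-expressing sub-cluster, led by Dmkn, Car8 and Smpd3, was at 487 and 370 CPM. Sub-cluster ratios ranged from 0.630 (0.526 to 0.752) in the cells led by Angptl7, Clu and Vit to 1.21 (1.01 to 1.46) in those led by Fmo2, Gdf10 and Inmt, and 3 of the 7 were above 1 and 4 below. The sub-cluster with the highest level contained 36.3% of the FAP-like cells in Ctrl but 27.7% in dKO. With the dKO levels weighted by the Ctrl makeup of sub-clusters, the log2 ratio in FAP-like cells was 0.054 in place of -0.081, so its sign depended on the makeup.

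**Figure D2:**
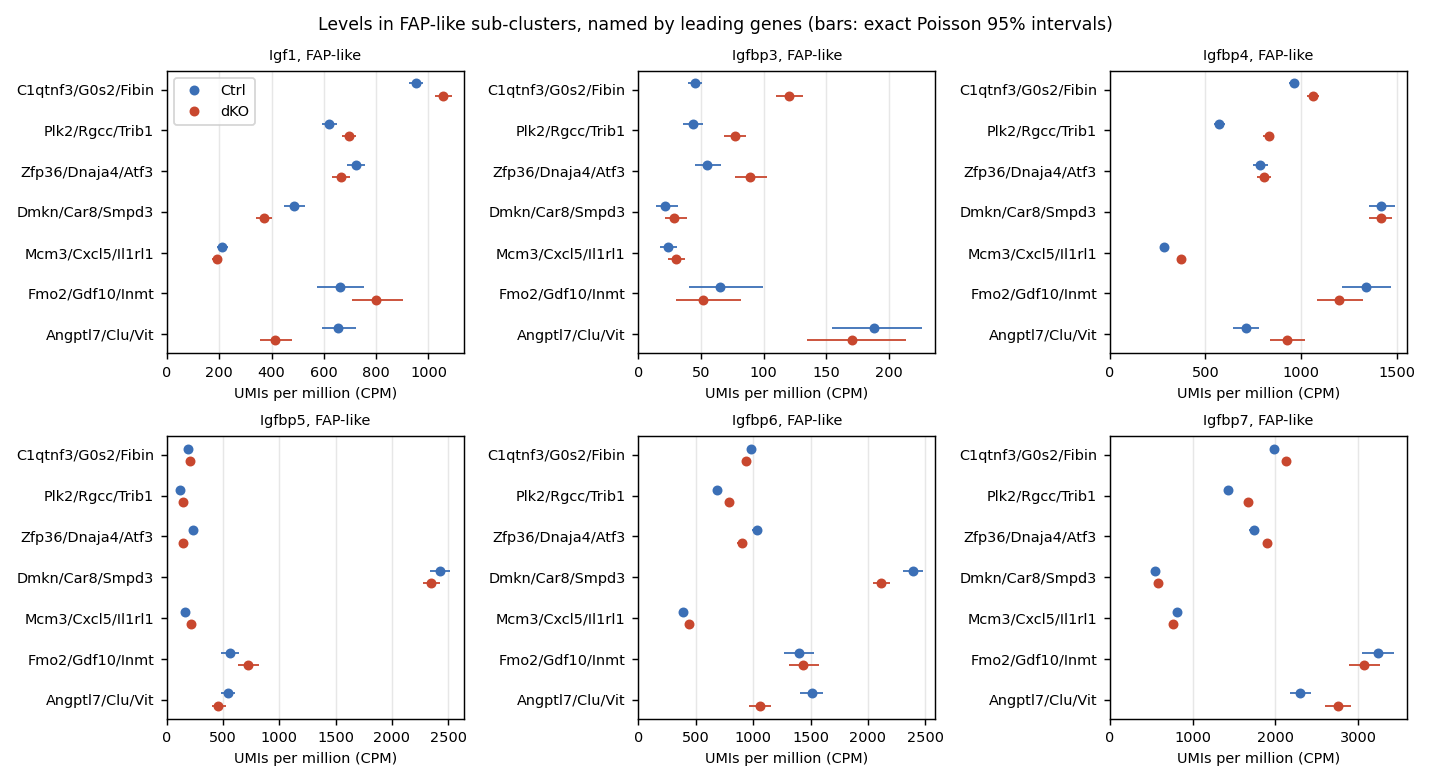
Levels (x axis, CPM, linear from 0, a different scale in each panel) of Igf1 and 5 binding protein genes in the 7 FAP-like sub-clusters, each labelled by its 3 leading genes, with Ctrl in blue, dKO in red and bars for the exact Poisson 95% interval. Igf1 was highest in the C1qtnf3/G0s2/Fibin cells, Igfbp5 and Igfbp6 in the Dmkn/Car8/Smpd3 cells and Igfbp7 in the Fmo2/Gdf10/Inmt cells, in both libraries.

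Among MO/MP-like cells, Igf1 differed more between sub-clusters than between libraries. It was highest in the cells led by Lyve1, Fcna and Cd163, genes of resident macrophages, with 455 CPM in Ctrl and 323 CPM in dKO, a ratio of 0.710 (0.619 to 0.814). The cells led by Spp1, which also had Gpnmb among their leading genes, were at 294 and 214 CPM with a ratio of 0.728 (0.645 to 0.820), and the cells led by Iigp1 and Ifit3, interferon-inducible genes, were at 297 and 219 CPM with a ratio of 0.737 (0.644 to 0.841). The cells led by Arl5c, Ccrl2 and Cxcl1 were at 196 and 200 CPM, a ratio of 1.02 (0.889 to 1.17). The lower dKO level was thus seen in 3 of the 4 sub-clusters with high Igf1, and the interval of the other included 1. The cells led by Vcan, Slpi and Hp, with the monocyte gene Ly6c2 among their leading genes, had 23.5 and 26.0 CPM (40 and 34 UMIs), and the cells led by Cd226, Dcstamp and Ear2 had 18.1 and 14.5 CPM. From the lowest to the highest of the 6 sub-clusters with at least 20 cells in each library, Igf1 spanned 25.1-fold in Ctrl and 22.3-fold in dKO.

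Igf1r, the gene of the receptor, had 1998 UMIs in Ctrl and 1386 in dKO over all kept cells, spread over most classes. Its highest level was in neutrophil-like cells, 192 CPM in Ctrl (148 to 246, 63 UMIs) and 217 CPM in dKO (136 to 328, 22 UMIs). Smooth muscle/pericyte-like cells followed with 127 and 149 CPM. EC-like cells, with 119 and 94.4 CPM, came before T cell-like cells, with 93.1 and 110 CPM, in Ctrl and after them in dKO. Neighbours in this order had overlapping intervals in each library, down to MuSC-like cells with 65.4 and 57.9 CPM and FAP-like cells with 60.6 and 57.7 CPM. MO/MP-like cells, the other large class, were low with 16.8 and 15.4 CPM. The ratios were 0.953 in FAP-like (0.867 to 1.05), 0.917 in MO/MP-like (0.733 to 1.14), 0.790 in EC-like (0.613 to 1.01), 1.17 in smooth muscle/pericyte-like (0.766 to 1.73) and 0.885 in MuSC-like cells (0.622 to 1.24), and each of these intervals included 1. Within the FAP-like cells the Dmkn/Car8/Smpd3 sub-cluster was highest, with 105 and 92.2 CPM.

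Igfbp2 had few UMIs, and MuSC-like cells held the largest share of them. They held 53 of the 61 UMIs in Ctrl, 86.9% (75.8% to 94.2%), and 12 of the 19 in dKO, 63.2% (38.4% to 83.7%), and the rest lay in tenocyte-like and FAP-like cells. The MuSC-like level was 21.4 CPM in Ctrl (16.0 to 28.0) and 15.4 CPM in dKO (7.98 to 27.0), with overlapping intervals. The gene was seen in 15 of 123 Ctrl and 3 of 31 dKO MuSC-like cells, and 9 of the 12 dKO UMIs came from 1 cell. A difference in the MuSC-like level of Igfbp2 was not detectable at this depth. Over all kept cells its 61 and 19 UMIs gave a ratio of 0.415 (0.234 to 0.705) from fewer than 100 UMIs, which also moves with the number of MuSC-like cells, 123 and 31.

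In MuSC-like cells Igfbp3, Igfbp4, Igfbp5, Igfbp6 and Igfbp7 were all lower in dKO, with most UMIs behind the value of Igfbp5. Igfbp5, a binding protein known to change during myogenic differentiation, had 1063 UMIs in Ctrl, a level of 429 CPM (404 to 456), and 37 UMIs in dKO, a level of 47.6 CPM (33.5 to 65.6). The ratio was 0.111 (0.0777 to 0.154). At least 1 UMI was seen in 69 of the 123 cells from Ctrl and 9 of the 31 from dKO, and the median cell had 79.1 CPM in Ctrl and 0 in dKO. The Ctrl UMIs were spread over many cells, since the 3 highest cells held 26.6% of them, with 104, 103 and 76 UMIs. In dKO the 3 highest cells, with 17, 8 and 6 UMIs, held 83.8%. The single-cell plot shows that the Ctrl cells reached 4386 CPM and the dKO cells 354 CPM.

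**Figure D3:**
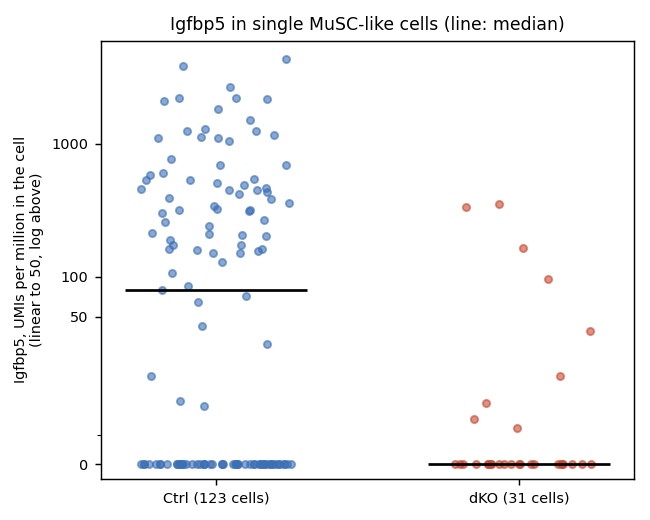
Igfbp5 in each MuSC-like cell (y axis, CPM in the cell, linear up to 50 and logarithmic above), with 123 Ctrl cells in blue, 31 dKO cells in red, sideways jitter for legibility and a line at the median. The medians are 79.1 and 0 CPM, and the highest cells are at 4386 CPM in Ctrl and 354 CPM in dKO.

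The lower Igfbp5 was found both in cells with and in cells without a stem cell marker, and both in cells with and in cells without a differentiation marker, splits chosen after the values were seen. Among cells with a UMI of Pax7, the transcription factor of stem cells, Igfbp5 was at 538 CPM in 69 Ctrl cells and 33.2 CPM in 12 dKO cells, a ratio of 0.0618 (0.0295 to 0.114). Among cells without one it was at 301 CPM in 54 and 56.7 CPM in 19 cells, a ratio of 0.189 (0.122 to 0.279). Split by Myog, the transcription factor of differentiating myoblasts, the ratio was 0.243 (0.156 to 0.363) in the 35 Ctrl and 5 dKO cells with a UMI and 0.0535 (0.0275 to 0.0942) in the 88 and 26 cells without, both outside the interval of the whole class. Thinned to 2000 UMIs per cell, an Igfbp5 UMI was left in 29.3% of 116 cells in Ctrl (21.2% to 38.5%) and in 6.45% of 31 in dKO (0.791% to 21.4%), intervals that overlap narrowly. B cell-like cells had 0% of 98 in Ctrl, with an upper limit of 3.69%, and 1.41% of 71 in dKO. Without thinning the share was 56.1% in Ctrl, where the median cell had 11725 UMIs, and 29.0% in dKO, where it had 10690, and 7 Ctrl and 0 dKO cells were left out as too shallow.

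Igfbp3 had 87 UMIs in Ctrl MuSC-like cells (35.1 CPM) and 6 in dKO (7.72 CPM), and Igfbp4, the binding protein cut by PAPPA, had 82 (33.1 CPM) and 4 (5.15 CPM). Each fell short of the 100 UMIs set for a ratio, and for both the intervals of the 2 libraries did not overlap. Igfbp6, which prefers IGF2 as its ligand, had 104 and 10 UMIs with a ratio of 0.306 (0.143 to 0.586), but its log2 ratio was 0.077 in place of -1.71 with doublets kept in, so that call was lost. Igfbp7 had 103 and 9 with a ratio of 0.278 (0.124 to 0.549). The Igfbp7 log2 ratio was -1.10 in thinned cells in place of -1.84. Igf1r was the exception among the genes with a ratio, with 162 and 45 UMIs and 0.885. So 3 of the 4 genes with a ratio were at least 1.5-fold lower and 0 were higher (2 of the 4 were lower by that much with doublets kept in), where 12.8% of 4327 genes with 100 UMIs in this class were lower by that much and 8.6% higher. The median log2 ratio was -1.78 over the 4 genes and 0.004 over all 4327.

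Several marker lists of other cells were lower in dKO too. The 12 FAP markers summed to 1467 CPM in Ctrl and 606 CPM in dKO MuSC-like cells, a ratio of 0.413 (0.375 to 0.455), with 9 of the 12 lower, 3 higher and only Pi16 at 0 in dKO. The 16 MO/MP markers summed to 147 and 64.4 CPM, with 14 lower and 7 at 0 in dKO, and the 12 EC markers to 30.3 and 3.86 CPM, with 9 lower and 9 at 0 in dKO. The 12 smooth muscle/pericyte markers had a summed ratio of 1.04 (0.979 to 1.11), but that list shares Des with the MuSC list, and the other 11 summed to 664 and 407 CPM, a ratio of 0.612 (0.541 to 0.691), with 9 lower and 0 higher. The 9 tenocyte markers summed to 124.0 and 90.1 CPM, a ratio of 0.727 (0.552 to 0.945), with 5 lower and 3 higher, and the 7 lymphatic EC markers to 154 and 99.1 CPM, a ratio of 0.642 (0.496 to 0.822), with 4 lower and 0 higher. The classes of these 3 lists all had more Igfbp5 than FAP-like cells in both libraries. The Schwann cell list had a ratio of 0.879 (0.734 to 1.05), with 6 of 8 lower, 0 higher and 3 at 0 in dKO, and the dendritic cell list 0.946 (0.782 to 1.14), from 2 of its 10 markers, since 8 were at 0 in both libraries. The neutrophil list was higher, at 37.2 and 83.7 CPM, a ratio of 2.25 (1.61 to 3.13), with 4 of 10 higher and 4 lower. Igf1, at a high level in FAP-like cells, was at 12.9 CPM in Ctrl and 14.2 CPM in dKO MuSC-like cells (32 and 11 UMIs). Igfbp5 in Ctrl was at 383 CPM in FAP-like cells and 429 CPM in MuSC-like cells, whereas Igfbp6 was at 995 and 42.003 CPM and Igfbp7 at 1606 and 41.6 CPM. The part of RNA from other cells in these ratios was not tested. The makeup of the class also differed, with 8 of the 12 MuSC markers lower in dKO and 4 higher. Calcr was at 18.6 and 1.29 CPM, Cdh15 at 203 and 63.1 CPM and Gal at 1633 and 223 CPM, whereas Vcam1, Myf5 and Des had ratios of 1.44 (1.22 to 1.69), 1.31 (1.03 to 1.66) and 1.31 (1.22 to 1.40). Pax7 (53.3 and 46.3 CPM) and Myog (716 and 737 CPM) had ratios of 0.869 (0.584 to 1.26) and 1.03 (0.936 to 1.13), and 9 of 10 cell cycle genes were higher in dKO with a summed ratio of 1.46 (1.37 to 1.55). The 10 markers of myocytes, the differentiated muscle cells, summed to 2637 and 4152 CPM, a ratio of 1.57 (1.51 to 1.64), with 6 higher, 4 lower and Myh4 and Pvalb at 0 in dKO. The part of these differences in the Igfbp5 ratio was not tested. The splits by Pax7 and Myog cannot show it, since the intervals of both genes' ratios included 1. They also rest on detection of a single gene, with 12 and 5 dKO cells on the positive side.

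**Figure D4:**
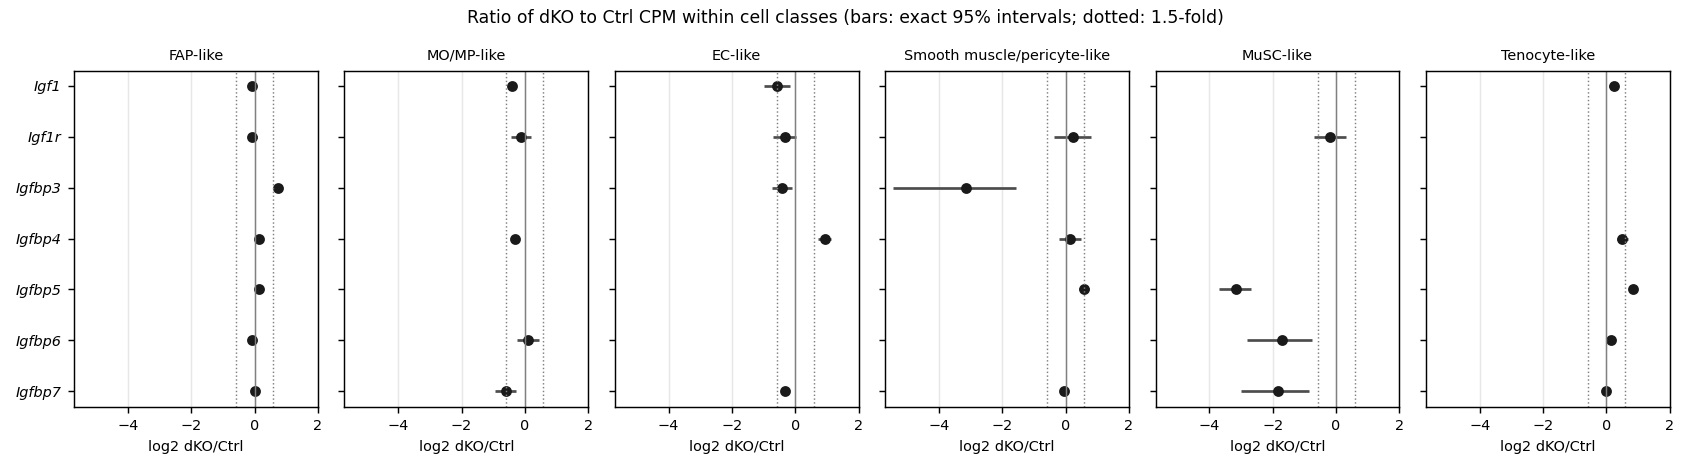
Log2 ratio of dKO to Ctrl CPM (x axis) for each gene with at least 100 UMIs in the class, with bars for the exact conditional 95% interval, a solid line at 0 and dotted lines at 1.5-fold. Igfbp5 at -3.17 in MuSC-like cells and Igfbp3 at -3.16 in smooth muscle/pericyte-like cells stand furthest out, and in FAP-like cells all but Igfbp3 lie within 1.5-fold.

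In FAP-like cells Igfbp3 was the gene that differed by more than 1.5-fold. Igfbp3, the main carrier of IGF1 in blood, was at 47.5 CPM in Ctrl (691 UMIs) and 79.4 CPM in dKO (1204 UMIs), a ratio of 1.67 (1.52 to 1.84). It was higher in dKO in 5 of the 7 sub-clusters: the ratio was 2.68 (2.30 to 3.14) in the C1qtnf3/G0s2/Fibin cells, 1.78 (1.43 to 2.21) in the Plk2/Rgcc/Trib1 cells and 1.62 (1.29 to 2.06) in the Zfp36/Dnaja4/Atf3 cells, while the intervals of the other 4 included 1. The highest level was in the Angptl7/Clu/Vit cells, 188 and 171 CPM, a ratio of 0.910 (0.671 to 1.23). Weighted to the Ctrl makeup, the log2 ratio was 0.89 in place of 0.74, so the difference was at least as large with the sub-cluster sizes held equal. EC markers, whose cells also contain Igfbp3, summed to 54.3 and 14.5 CPM among FAP-like cells, and their part in the Igfbp3 ratio was not tested. In thinned cells the share with an Igfbp3 UMI was 7.57% in Ctrl (6.02% to 9.37%) and 11.6% in dKO (9.76% to 13.7%), and unthinned it was 20.9% and 24.3%, while B cell-like cells held 0 UMIs of it in both libraries. Of the 7 genes with a ratio in FAP-like cells, Igfbp3 alone was past 1.5-fold, where 2.59% of 10222 genes were higher by that much and 3.13% lower. The other 6 had ratios from 0.946 to 1.11, and their intervals excluded 1 except for Igf1r and Igfbp7. The median log2 ratio of all 10222 genes in this class was -0.061, a value inside the intervals of Igf1, Igf1r and Igfbp6.

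In vessels Igfbp3 went the other way. Smooth muscle/pericyte-like cells held 124 UMIs in Ctrl (124 CPM) and 3 in dKO (13.9 CPM), a ratio of 0.112 (0.0228 to 0.335). In Ctrl 31 of these UMIs came from 1 cell and 27 of 123 cells had at least 1, and in dKO all 3 came from 1 of 35 cells. In thinned cells the share with a UMI was 9.65% of 114 in Ctrl (4.92% to 16.6%) and 0% of 29 in dKO, with an upper limit of 11.9%, so these intervals overlap. The log2 ratio was -2.45 with doublets kept in and -2.39 with a 200-gene filter, in place of -3.16. The class itself differed in makeup between the libraries, with 5 of its 12 markers lower in dKO and 7 higher. Rgs5, Kcnj8 and Abcc9, genes of pericytes, were at 8872, 368 and 621 CPM in Ctrl and 2297, 200 and 227 CPM in dKO, while Acta2 and Tagln, genes of smooth muscle, were at 7301 and 5209 CPM in Ctrl and 13941 and 9778 CPM in dKO. Of the other 7 markers, Des (2.40), Cnn1 (1.75), Mcam (1.18), Myh11 (1.17) and Notch3 (1.12) had ratios above 1 and Cspg4 (0.932) and Pdgfrb (0.572) below. EC markers within this class also differed, summing to 7555 CPM in Ctrl and 2622 CPM in dKO, with 11 of 12 lower and Cytl1 at 0 in both libraries. The part of these in the Igfbp3 ratio was not tested. In EC-like cells Igfbp3 was at 172 and 130 CPM, a ratio of 0.751 (0.607 to 0.924). Its level depended on the EC-like cluster, with 612 and 290 CPM in the cells led by Gkn3, Pthlh and Gper1, which have the arterial gene Bmx among their leading genes, 151 and 145 CPM in the cells led by Car4, Timp4 and Lpl, with the capillary gene Gpihbp1 among their leading genes, and 55.8 and 31.8 CPM in the cells led by Ackr1, Lbp and Selp, genes of venules. The ratio was 0.474 (0.340 to 0.649) in the first of these and 0.959 (0.696 to 1.30) in the second. Smooth muscle/pericyte markers in EC-like cells had a summed ratio of 0.792 (0.721 to 0.869), with 7 of 12 lower and 4 higher. Their part in the EC-like Igfbp3 ratios was not tested.

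Igfbp4 was a stromal gene with levels of 803 CPM in Ctrl (11677 UMIs) and 878 CPM in dKO (13315 UMIs) in FAP-like cells, a ratio of 1.09 (1.07 to 1.12). Tenocyte-like cells had 391 and 552 CPM, and their ratio of 1.41 (1.25 to 1.59) depended on single cells. Without the cell with most Igfbp4 UMIs in each, the log2 ratio was 0.11 in place of 0.50. Within FAP-like cells the Dmkn/Car8/Smpd3 cells were highest, with 1420 and 1415 CPM, and the Mcm3/Cxcl5/Il1rl1 cells lowest, with 284 and 371 CPM. In MO/MP-like cells Igfbp4 was at 98.5 and 79.5 CPM, and the Lyve1/Fcna/Cd163 cells stood out with 385 and 285 CPM, as they did for Igf1. The Igfbp4 ratio was below 1 in 5 of the 6 MO/MP-like sub-clusters, with intervals excluding 1 in the Lyve1/Fcna/Cd163 cells (0.739), the Arl5c/Ccrl2/Cxcl1 cells (0.703), the Vcan/Slpi/Hp cells (0.492) and the Iigp1/Ifit3/Calhm6 cells (0.660). Over the whole MO/MP-like class it was 0.808 (0.735 to 0.887), short of 1.5-fold. FAP markers in MO/MP-like cells had a summed ratio of 0.754 (0.724 to 0.784), with 11 of 12 lower and 1 higher. Their part in the Igfbp4 ratios was not tested.

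**Figure D5:**
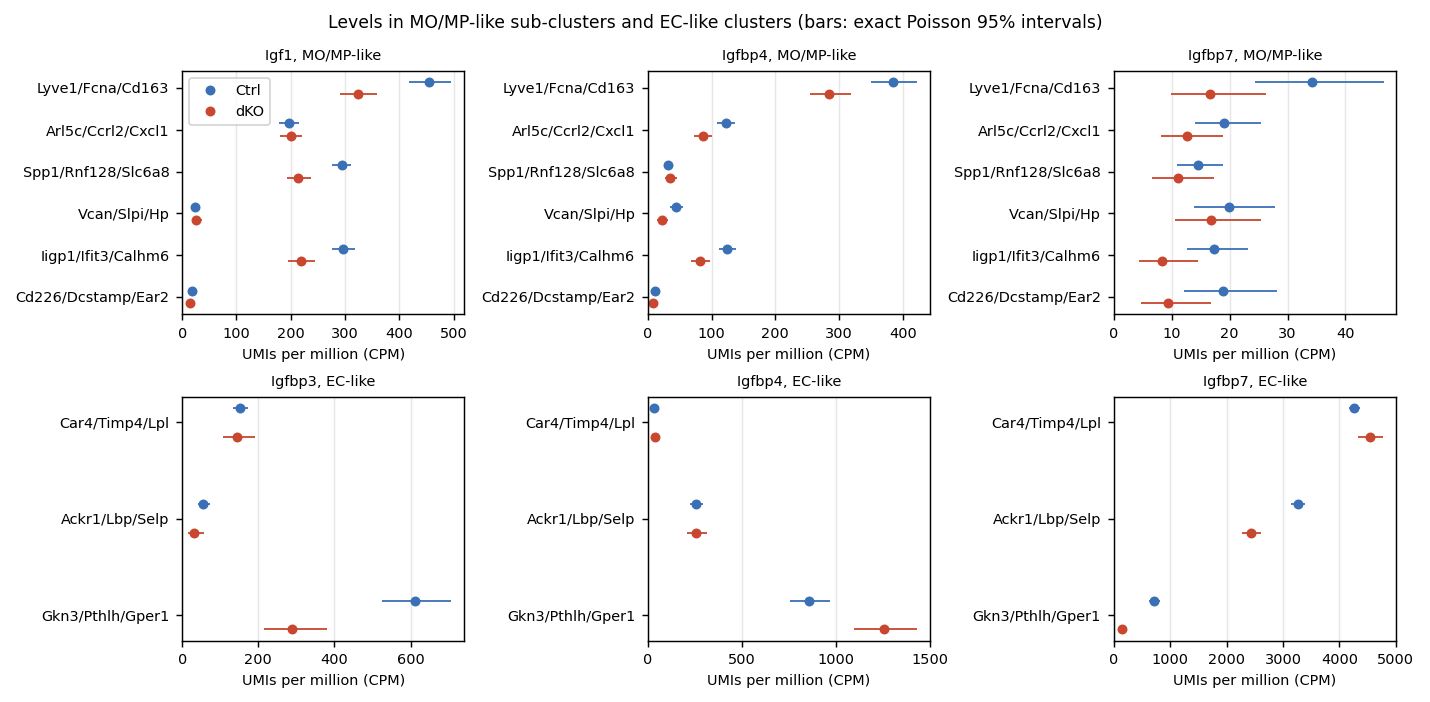
Levels (x axis, CPM, linear from 0, a different scale in each panel) in the 6 MO/MP-like sub-clusters with at least 20 cells in each library (upper row) and the 3 EC-like clusters (lower row), each labelled by its 3 leading genes, with Ctrl in blue, dKO in red and bars for the exact Poisson 95% interval. Igf1 and Igfbp4 were highest in the Lyve1/Fcna/Cd163 cells, and in EC-like cells Igfbp3 and Igfbp4 were highest in the Gkn3/Pthlh/Gper1 cells, where Igfbp7 was lowest.

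In EC-like cells Igfbp4 was higher in dKO, with 192 CPM in Ctrl (521 UMIs) and 367 CPM in dKO (323 UMIs), a ratio of 1.91 (1.66 to 2.20). The Gkn3/Pthlh/Gper1 cells held 49.3% of these UMIs in Ctrl and 68.4% in dKO. Their level was 859 CPM in Ctrl and 1256 CPM in dKO, against 255 and 258 CPM in the Ackr1/Lbp/Selp cells and 31.2 and 36.3 CPM in the Car4/Timp4/Lpl cells (49 and 13 UMIs). The ratios were 1.46 (1.22 to 1.76) and 1.01 (0.779 to 1.30) in the first pair of these, both below that of the whole class. The Gkn3/Pthlh/Gper1 cells were 13.6% of Ctrl and 17.7% of dKO EC-like cells. Weighted to the Ctrl makeup, the log2 ratio was 0.32 in place of 0.94, which is under 1.5-fold. FAP markers, at 297 and 296 CPM, and MO/MP markers, at 255 and 256 CPM, had summed ratios of 0.996 (0.863 to 1.15) and 1.00 (0.858 to 1.17) in EC-like cells. Single markers did not follow these sums, with 9 of 12 FAP markers lower, 3 higher and Pdgfra at 0 in dKO, and 12 of 16 MO/MP markers lower, 3 higher and Ly6c2, Fcna and Cd163 at 0 in dKO. The tenocyte list was at 36.5 and 58.0 CPM, a ratio of 1.59 (1.11 to 2.25), with 6 of 9 higher and 2 lower. The MuSC list had 1.91 (1.74 to 2.09), with 2 of 12 higher and 7 lower. The smooth muscle/pericyte list had 0.792 (0.721 to 0.869), with 7 of 12 lower and 4 higher. The part of these in the higher Igfbp4 of EC-like cells was not tested. Cycling MO/MP-like cells, from 103 Ctrl and 45 dKO cells, differed the other way, with 172 and 39 Igfbp4 UMIs, 94.5 and 52.4 CPM and a ratio of 0.554 (0.381 to 0.789). The log2 ratio of -0.85 became 0.024 in thinned cells and -0.39 with the mean of single-cell CPM values, so its sign and its call depended on the setting. There 1 of the 2 genes with a ratio was past 1.5-fold lower and 0 were higher, where 5.54% of 3576 genes were lower and 6.63% higher.

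Igfbp7, with 41113 UMIs in Ctrl and 30566 in dKO, was a vascular and stromal transcript. EC-like cells had the highest level in Ctrl, 3564 CPM, above smooth muscle/pericyte-like cells with 3211 CPM, and in dKO the order was the reverse, 2838 and 3068 CPM with overlapping intervals. Tenocyte-like cells (1628 and 1611 CPM) and FAP-like cells (1606 and 1616 CPM) came next and did not differ beyond their intervals in either library. The EC-like ratio was 0.796 (0.762 to 0.832). Clusters differed in this too, since the Car4/Timp4/Lpl cells were at 4266 and 4543 CPM, a ratio of 1.06 (1.01 to 1.12), the Ackr1/Lbp/Selp cells at 3265 and 2437 CPM, a ratio of 0.746 (0.690 to 0.807), and the Gkn3/Pthlh/Gper1 cells at 716 and 153 CPM, a ratio of 0.215 (0.138 to 0.321). With the Ctrl makeup the EC-like log2 ratio was -0.066 in place of -0.33. The Car4/Timp4/Lpl cells, with the highest level, were thus not lower in dKO. Smooth muscle/pericyte markers in EC-like cells summed to 820 and 649 CPM, with 7 of 12 lower and 4 higher. Their part in the EC-like Igfbp7 ratios was not tested.

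Counted over the 5 genes with a ratio in EC-like cells, Igfbp4 was past 1.5-fold higher and 0 were past it lower, where 4.66% of 4790 genes were higher and 7.22% lower by that much. In smooth muscle/pericyte-like cells 0 of 5 were higher and Igfbp3 was lower, where 10.2% of 2092 genes were higher and 14.1% lower. In MO/MP-like cells 0 of 5 were higher and Igfbp7, with a low level of 18.9 and 12.4 CPM and a ratio of 0.656 (0.518 to 0.827), was lower, where 4.52% of 8688 genes were higher and 2.62% lower. It fell short of 1.5-fold with doublets kept in, a log2 ratio of -0.54 in place of -0.61, and with a 200-gene filter, -0.55. The Igfbp7 ratio was below 1 in all 6 MO/MP-like sub-clusters with at least 20 cells in each library, with 11 to 54 UMIs per sub-cluster and library, but 4 of the 6 intervals included 1. T cell-like cells had Igfbp7 at 22.7 CPM in Ctrl and 14.6 CPM in dKO (9 and 7 UMIs). B cell-like cells had it at 16.5 and 0 CPM (6 and 0 UMIs). In each library the intervals of both overlapped that of the MO/MP-like cells, so the MO/MP-like level was near that of lymphocytes. EC markers in MO/MP-like cells summed to 321 CPM in Ctrl and 253 CPM in dKO, with 11 of 12 lower and none at 0. FAP markers there summed to 556 and 419 CPM, with 11 of 12 lower and 1 higher. Smooth muscle/pericyte markers summed to 24.0 and 11.4 CPM, with 9 of 12 lower and 2 higher. Tenocyte markers were at 29.5 and 24.9 CPM, with 5 of 9 lower and 4 higher. Lymphatic EC markers were higher, at 48.0 and 69.8 CPM, with 2 of 7 higher and 3 lower. The part of these in the MO/MP-like Igfbp7 ratio was not tested.

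Igfbp5 was highest, among classes of at least 20 cells in each library, in smooth muscle/pericyte-like cells, 1420 CPM in Ctrl (1418 UMIs) and 2107 CPM in dKO (454 UMIs), a ratio of 1.48 (1.33 to 1.65) in the class whose makeup differed as above. In tenocyte-like cells, which also express tendon matrix genes, it was at 613 and 1095 CPM, a ratio of 1.79 (1.63 to 1.96). That difference was smaller with doublets kept in, a log2 ratio of 0.27 in place of 0.84, and without the cell with most UMIs in each library it was 0.63. FAP markers in this class summed to 52461 and 62673 CPM, with 9 of 12 higher in dKO, and their part in the ratio was not tested. Igfbp5 was the only gene of the 5 with a ratio in tenocyte-like cells past 1.5-fold, where 2.72% of 3083 genes were higher and 3.21% lower. In FAP-like cells Igfbp5 was at 383 and 424 CPM, a ratio of 1.11 (1.07 to 1.15), whose sign changed with the mean of single-cell CPM values (a log2 ratio of -0.12 in place of 0.15). The gene marked out the Dmkn/Car8/Smpd3 cells, at 2426 CPM in Ctrl and 2349 CPM in dKO, a ratio of 0.968 (0.922 to 1.02), and 51.2% and 57.0% of the FAP-like Igfbp5 UMIs lay there. Across the 7 sub-clusters it spanned 20.3-fold in Ctrl and 16.2-fold in dKO, more than any other of these genes with UMIs in every FAP-like sub-cluster.

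Igfbp6 was highest in tenocyte-like and then FAP-like cells, among classes of at least 20 cells in each library. Igf1 and Igfbp4 were highest in the same classes. Igfbp6 was at 1790 CPM in Ctrl and 1998 CPM in dKO in tenocyte-like cells, a ratio of 1.12 (1.05 to 1.19), and at 995 and 943 CPM in FAP-like cells, a ratio of 0.948 (0.926 to 0.970). Of its 18903 UMIs in Ctrl, 76.5% lay in FAP-like cells, as did 81.5% of its 17560 in dKO. The Dmkn/Car8/Smpd3 cells were highest, with 2389 and 2118 CPM, as they were for Igfbp4 and Igfbp5, whereas Igfbp7 was lowest in them, with 548 and 585 CPM. Cycling FAP-like cells had less of several of the genes in dKO, with ratios of 0.693 (0.607 to 0.790) for Igfbp6, 0.606 (0.560 to 0.656) for Igfbp7 and 0.791 (0.660 to 0.947) for Igfbp4, from 38 Ctrl and 34 dKO cells. Igfbp7 alone of the 6 genes with a ratio there was past 1.5-fold, where 8.61% of 3564 genes were lower and 8.36% higher by that much. Its log2 ratio of -0.72 became 0.072 in thinned cells, -0.49 with doublets kept in and -0.43 with the mean of single-cell CPM values, so this call too depended on the setting. For Igfbp4 in these cells the log2 ratio of -0.34 became 0.019 with doublets kept in.

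The pattern of each gene over 12 classes in 2 libraries was compared with that of 9387 genes, by Pearson's r of log2(CPM + 5) over these 24 points, which share libraries and depth. The closest genes were Steap3 (0.938), Fn1 (0.936) and Il11ra1 (0.921) for Igf1. They were Nudt4 (0.849), Actn1 (0.843) and Atrn (0.833) for Igf1r. Igfbp2 was closest to the myogenic genes Chrna1 (0.937), Ankrd1 (0.934) and Jsrp1 (0.928), and Igfbp3 to Ntf3 (0.965), Fmo1 (0.942) and Vwa1 (0.939). Igfbp4 was closest to Tmem159 (0.932), Fut11 (0.882) and Glg1 (0.874), and Igfbp5 to Map1a (0.982), Arhgef25 (0.962) and Fat1 (0.958). Igfbp6 followed the matrix genes Dcn (0.986), Mfap4 (0.982) and Fbln7 (0.981), and Igfbp7 followed Col4a2 (0.972), a chain of basement membrane collagen, Meox2 (0.969) and Tshz2 (0.968).

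The rest of the pathway was read from a list of 30 genes of ligands, receptors, proteases, adaptors and kinases. Igf2, the other ligand, had 479 and 93 UMIs in the FAP-like cells of Ctrl and dKO, 32.9 and 6.13 CPM, a ratio of 0.186 (0.147 to 0.233). In MuSC-like cells it was at 187 and 335 CPM, a ratio of 1.79 (1.53 to 2.09). Igf2 was the only one of the 22 listed genes with 100 UMIs in FAP-like cells to pass 1.5-fold, and in MO/MP-like cells Htra3, a protease that can cut binding proteins, was the only one of 15, with 97 and 42 UMIs and a ratio of 0.651 (0.442 to 0.944). Both were lower in dKO, where 3.13% of all genes were lower by that much and 2.59% higher among FAP-like cells, against 2.62% and 4.52% in the MO/MP-like class. FAP markers in MO/MP-like cells had a summed ratio of 0.754 (0.724 to 0.784), and their part in the Htra3 ratio was not tested. The median log2 ratio over the list was -0.16 in FAP-like cells, where it was -0.061 over all genes, and 0.077 in MO/MP-like cells, where it was -0.0015.

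In the other classes the genes past 1.5-fold were named after their values had been seen. In EC-like cells Htra1, a protease of binding proteins, and Stc1, an inhibitor of PAPPA, were higher, 2 of 15, with ratios of 1.64 and 1.71, and 0 were lower, where 4.66% of all genes were higher and 7.22% lower. In MuSC-like cells 2 of 12 were higher, Igf2 and the kinase gene Akt1 (1.58), where 8.6% of all genes were higher. There 3 were lower, where 12.8% of all genes were, namely Htra3 (0.471), the insulin receptor substrate gene Irs2 (0.608) and Grb10 (0.474), an imprinted adaptor gene that restrains the receptor. FAP markers in MuSC-like cells had a summed ratio of 0.413 (0.375 to 0.455), and their part in these ratios was not tested. In smooth muscle/pericyte-like cells Irs2 (1.52) was higher and Igf2r (0.412), whose product takes up IGF2, lower, of 9, where 10.2% of all genes were higher and 14.1% lower. In tenocyte-like cells 0 of 13 passed 1.5-fold in either direction, where 2.72% of all genes were higher and 3.21% lower. The median log2 ratio over the list was -0.020 in EC-like, -0.16 in MuSC-like, -0.33 in smooth muscle/pericyte-like and -0.15 in tenocyte-like cells, where it was -0.024, 0.0040, 0.019 and -0.0030 over all genes.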

How the data were processed

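Single cell RNA-seq of 2 libraries, Ctrl and dKO, was analysed. The authors deposited raw UMI counts per gene and barcode on mm10, made with Cell Ranger, for which the study gives version 7.0.0 and the matrix header 3.0.2. The counts held 45556596 UMIs in 4527 Ctrl cells and 33815155 in 3483 dKO cells, so rare genes in small classes were measured with few UMIs. No mitochondrial gene was listed.

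A minimum of 500 genes per cell left out 192 and 154. The 7.5% with the highest Scrublet score (scanpy 1.11.5) were removed from each library, since its own threshold called only 7 and 14 cells. Counts were log-normalized, the libraries integrated and clustered in Seurat 5.3.0 (2000 variable genes less the IGF genes, 40 dimensions, resolution 0.8), which gave 25 clusters. A cluster was named from 17 marker lists by its 10 leading genes, given at least 3 enriched markers. 1 cluster was left unnamed by a rule set after it was seen. The rule asked for at least 3 of Sfrp5, Lypd2, Cldn1, Krt19, Wnt6 and Stra6 among the leading genes. These genes were taken to go against a FAP name. FAP-like and MO/MP-like cells were sub-clustered with 30 dimensions at resolution 0.4.

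UMIs were summed per class and library, with exact Poisson, binomial and conditional binomial 95% intervals. These cover counting error only. The calculation was tested on simulated data. Genes named are the 8 members, the 3 genes most like each among genes with 500 UMIs, pathway genes past 1.5-fold in FAP-like or MO/MP-like cells, and Igf2. Pathway genes past it in other classes were named after their values were seen. The members and lists were chosen with earlier results of these data known. Alternatives are given at the end.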

Additional observations from a re-analysis of the deposited data

Results flagged for a closer look

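Each of 3 binding protein genes was past 1.5-fold in opposite directions in 2 cell classes. With 1 library per group the difference between the classes was not tested. The log2 ratio of dKO to Ctrl for Igfbp3 was 0.74 in FAP-like and -3.16 in smooth muscle/pericyte-like cells. For Igfbp4 it was 0.94 in EC-like and -0.85 in cycling MO/MP-like cells, from 172 and 39 UMIs in the latter. The EC-like value was 0.32 with the Ctrl makeup of clusters and the cycling MO/MP-like value 0.024 in thinned cells, both under 1.5-fold. For Igfbp5 it was 0.84 in tenocyte-like and -3.17 in MuSC-like cells, and the tenocyte-like value was 0.27 with doublets kept in, under 1.5-fold.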

How the results depend on the processing

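The 39 ratios were recomputed in 396 alternatives in all, and 365 of these kept the sign. The 10 ratios past 1.5-fold kept their sign in 99 of 102 alternatives and stayed past 1.5-fold in 91. The sign changed for Igfbp6 in MuSC-like cells (log2 ratio 0.077 with doublets kept) and, in thinned cells, for Igfbp4 in cycling MO/MP-like (0.024) and Igfbp7 in cycling FAP-like cells (0.072), and the cause was not tested. A class of cycling cells was not formed in every clustering, and such alternatives gave no value. Values outside the counting interval of the reported one were, as log2 ratios, these, beside those the report gives. In FAP-like cells, dividing by the median ratio of all genes gave -0.020 for Igf1, 0.19 for Igfbp4, 0.21 for Igfbp5, -0.016 for Igfbp6 and 0.070 for Igfbp7. Thinning to 2000 UMIs gave -0.13 for Igf1, 1.11 for Igfbp3, -0.016 for Igfbp5, -0.20 for Igfbp6 and -0.023 for Igfbp7. The Ctrl makeup of sub-clusters gave 0.054 for Igf1, 0.89 for Igfbp3, 0.18 for Igfbp4, -0.0033 for Igfbp5 and 0.12 for Igfbp7. The mean of single-cell CPM values gave -0.12 for Igfbp5, -0.19 for Igfbp6 and 0.047 for Igfbp7. Igfbp7 was also -0.023 with a 200-gene filter, -0.026 at resolution 0.4, -0.025 without integration, and -0.026 with all variable genes or with cycling cells included. In EC-like cells Igfbp4 was 0.68 with doublets kept, 0.45 from each cell's own CPM and 0.32 with the Ctrl makeup of clusters, and Igfbp7 was -0.50 with doublets kept and -0.066 with the Ctrl makeup. In MuSC-like cells Igfbp5 was -3.83 without the highest cell of each library, -4.02 in cells with a Pax7 UMI and -2.41 in cells without, and -2.04 in cells with a Myog UMI and -4.23 in cells without. Igfbp6 there was -2.40 from each cell's own CPM. Igfbp7 in smooth muscle/pericyte-like cells was -0.34 with doublets kept and 0.17 thinned. Igfbp6 was -0.30 and 0.54 in MO/MP-like and 0.053 and 0.31 in tenocyte-like cells under the same pair of settings, and 0.064 in the latter from each cell's own CPM. Igfbp4 in MO/MP-like cells was -0.45 with the Ctrl makeup. Igfbp5 in tenocyte-like cells was 1.05 with a 200-gene filter and 1.09 thinned, and in cycling FAP-like cells 0.56 with doublets kept, -0.89 from each cell's own CPM and -1.08 without the highest cell. Igfbp6 in cycling FAP-like cells was -0.28 with doublets kept and -0.90 without the highest cell, and Igfbp4 there 0.052 from each cell's own CPM. Igf1 in cycling MO/MP-like cells was -0.88 with a 200-gene filter, and Igfbp4 in tenocyte-like cells 0.17 from each cell's own CPM. The splits by Pax7 and Myog and the makeup of EC-like clusters were chosen after seeing the data. The FAP-like share of Igf1 UMIs was 66.3% in Ctrl and 78.2% in dKO with doublets kept. With classes weighted equally by CPM, it was 31.2% and 32.3%, and the MO/MP-like share 10.2% and 8.32%. With a minimum of 30 UMIs in place of 100, the share of genes past 1.5-fold lower was 5.51% in FAP-like, 5.42% in MO/MP-like, 13.8% in EC-like, 22.8% in smooth muscle/pericyte-like and 8.33% in tenocyte-like cells, and the share higher 7.004% in EC-like, 13.5% in MuSC-like and 6.37% in tenocyte-like cells. No paired analysis was possible because each group had 1 library. Depth limits the dKO values of MuSC-like and smooth muscle/pericyte-like cells, with 31 and 35 cells.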

Other observations

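In classes under 20 cells per library, Igfbp5 reached 2362 CPM in the 18 lymphatic EC-like cells of Ctrl (interval 2078 to 2675) and 2579 CPM in the 13 of dKO (2201 to 3004), against 19.5 and 5.69 CPM in EC-like cells. Igfbp5 was not among the markers that named them. Igfbp3 in the same cells had 26 UMIs in Ctrl and 1 in dKO.

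The unnamed cluster of 17 Ctrl and 11 dKO cells had the highest Igfbp6 levels of all, 6238 CPM from 921 UMIs in Ctrl (interval 5842 to 6654) and 11720 CPM from 859 UMIs in dKO (10950 to 12531). Igfbp5 was at 1463 and 2961 CPM and Igfbp7 at 2262 and 3466 CPM there. Schwann cell-like and myocyte-like cells were too few for a level of most of these genes, with 10 and 8, and 16 and 4 cells.

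T cell-like cells, which lack most of the family, had Igfbp4 at 156 CPM in Ctrl (62 UMIs, 119.6 to 200.1) and 70.7 CPM in dKO (34 UMIs, 49.0 to 98.9), fewer than 100 UMIs together, and a thinned share of 16.5% of 91 Ctrl and 9.91% of 111 dKO cells with a UMI, against 2.04% of 98 and 0% of 71 B cell-like cells at median depths of 3219 and 3081, and 2328 and 2556 UMIs. They also had Igf1r in 7.69% and 16.2% of thinned cells, against 1.02% and 0% of B cell-like cells.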
